A study of Mus musculus with 5 samples.

Results

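The pyruvate dehydrogenase complex (PDC) and the enzymes that switch it on and off were followed at the transcript level in mouse liver. The gene set comprised the 4 kinases Pdk1, Pdk2, Pdk3 and Pdk4, the phosphatase genes Pdp1 and Pdp2, and the structural genes Pdha1, Pdhb, Dlat and Pdhx. These are 10 of the 19938 genes that had a probe set assigned to exactly 1 gene symbol. Where a gene has several probe sets, the one with the highest mean was to stand for it, but all 10 genes had a single probe set, so no measured value entered that choice. The genes were chosen by their role in the complex, at a time when the SD of Pdk4 between these livers was already known. The SD of Pdk4 is therefore given as a description.

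Liver RNA came from 5 male, wild-type C57BL/6N mice aged 5 to 6 months, with 1 Affymetrix array per mouse. All 5 mice had received streptozotocin (STZ), a toxin of the insulin-producing beta cells given to induce type 1 diabetes as 5 daily doses of 65 mg/kg into the peritoneum, at an age of 10 to 16 weeks. All 5 then received bezafibrate (BEZ), a fibrate drug that activates peroxisome proliferator-activated receptors (PPARs), mixed into the food for 8 weeks from 2 weeks after STZ. The protocol names food with 0.25% or 0.5% BEZ and does not say which a mouse ate, so the amount of drug, the exact age and other differences between the mice cannot be told apart. With this 1 doubly treated group, the values describe levels and the spread between livers, and they give no effect of STZ or of BEZ.

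PDC sits in the mitochondrial matrix and turns pyruvate into acetyl-CoA, which commits carbon from glucose to the citrate cycle or to fat. The kinases phosphorylate its E1 alpha subunit and switch the complex off, and the phosphatases remove the phosphate and switch it on. In liver, Pdk4 is known as the kinase gene that rises in fasting and diabetes, that PPARA, FOXO1 and glucocorticoids induce, and that insulin represses. Pdk2 is known as the other main kinase of liver, while Pdk1 is best known as a target of hypoxia signalling and Pdk3 for its place in testis and brain.

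The arrays met the labels for tissue. All 11 measured hepatocyte markers exceeded the brightness floor in every liver and spread little between mice, with a median SD of 0.07 on the log2 scale. The floor is the 95th percentile of 1212 probe sets for olfactory and vomeronasal receptors, which liver is not known to express, and lay between 5.58 and 6.07. Mouse 4 had the highest floor, and 76.0% of these receptor probe sets were brightest in it. Without mouse 4 limma called 0 of all probe sets (864 at an unadjusted p under 0.05), so no call below was kept when it was left out. Array medians lay between 6.22 and 6.31. Muscle and macrophage transcripts were highest in mouse 1. All values below are log2 signals of the RMA method, on which a difference of 1 is a 2-fold difference. Levels of different genes depend on their probes and are not set against each other.

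Of the 10 genes, 9 exceeded the floor in all 5 livers, and Pdk4 had the largest SD of these 9. Pdk4 spanned 4.61-fold between the livers and Pdk1 spanned 1.92-fold, whereas the phosphatase and structural genes spanned 1.07-fold (Pdp1) to 1.44-fold (Pdhx). Thus 2 of the 9 genes above the floor spanned more than 1.5-fold, against 7.92% of all 13339 genes tested. The median SD of the 9 genes was 0.13, close to the 0.12 of all tested genes, without matching for level. In a test of each variance between mice against the variance expected at that level, fitted with limma over all 14589 probe sets tested, 1 of the 9 genes passed after Benjamini-Hochberg adjustment, against 0.356% of all probe sets. At an unadjusted p under 0.05 there were 2 of 9 (Pdk4 and Pdk1), against 6.34%. Since Pdk4 was known to spread widely when the set was drawn up, its place in these counts carries no separate weight.

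**Figure D1:**
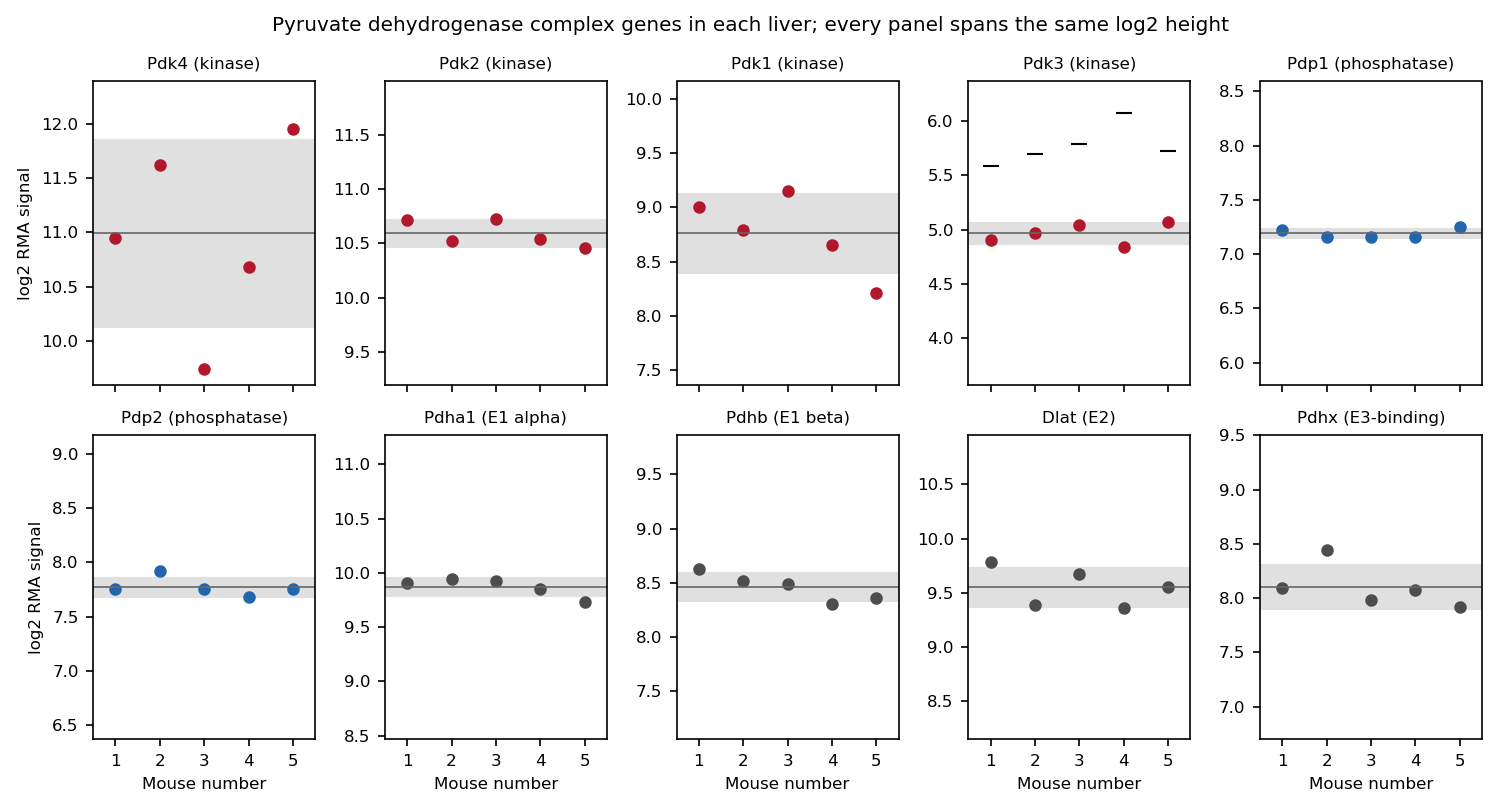
log2 RMA signal (vertical axis) of the 10 genes in each of the 5 livers (horizontal axis, mouse number); each point is 1 liver, the line is the mean, the grey band the mean ± SD (n = 5), and every panel covers the same log2 height. Black dashes in the Pdk3 panel mark the brightness floor of each array. Pdk4 ranges from 9.74 in mouse 3 to 11.95 in mouse 5, Pdk1 from 8.21 to 9.15, and the Pdp1 points lie within 0.10 of each other.

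Pdk4 encodes the kinase that responds most to the supply of fat and the lack of insulin. Its log2 signal was 10.95 in mouse 1, 11.62 in mouse 2, 9.74 in mouse 3, 10.69 in mouse 4 and 11.95 in mouse 5, a mean of 10.99 ± 0.86 (SD, n = 5). Mice 5 and 2 were high, mouse 1 was at the mean, mouse 4 lay somewhat below it and mouse 3 was far below the rest. All 5 values lay well over the floor, so none of this span is at background. By SD, Pdk4 ranked 16 among the 13339 tested genes, and its limma adjusted p was 0.0102. The call was lost without mouse 3 (SD 0.58, limma adjusted p = 0.0824) and without mouse 4 (SD 0.97, limma adjusted p = 0.103), and also without the level trend (limma adjusted p = 0.0867) or the robust step of the variance fit (limma adjusted p = 0.0819). The range over all 13 alternatives was 0.000287 to 0.103. The SD was 0.78 or more without any single mouse other than mouse 3.

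Pdk1 was the next widest and ran the other way at the extremes. It encodes a kinase with the same substrate, and had a log2 signal of 9.0 in mouse 1, 8.80 in mouse 2, 9.15 in mouse 3, 8.65 in mouse 4 and 8.21 in mouse 5, a mean of 8.76 ± 0.36 (SD, n = 5). Mouse 3, lowest for Pdk4, was highest for Pdk1, and mouse 5, highest for Pdk4, was lowest for Pdk1. The variance of Pdk1 did not pass (limma adjusted p = 0.354), and 2.32% of tested genes had an SD as large or larger. Mouse 5 set much of it, since the SD was 0.22 without that mouse (limma adjusted p = 0.897) and the span then fell under 1.5-fold.

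Pdk2 encodes a widely expressed kinase, and it spread little. Its log2 signal was 10.72 in mouse 1, 10.52 in mouse 2, 10.72 in mouse 3, 10.54 in mouse 4 and 10.46 in mouse 5, a mean of 10.59 ± 0.12 (SD, n = 5), a range of 0.26. Mice 1 and 3 formed the high end and mouse 5 was lowest, as for Pdk1, but the variance was near that expected at its level (ratio 1.48, limma adjusted p = 0.992). Mouse 3 was highest as deposited and after quantile normalization, and mouse 1 when each array was centred on its median.

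Pdk3 encodes a kinase with little known role in liver, and no liver exceeded the floor. Its log2 signal lay between 4.84 and 5.07, with a mean of 4.97, against floors of 5.58 to 6.07. It was therefore left out of the variance test, and its spread is not read as expression.

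The regulatory sequence next to the start sites of the 3 expressed kinases is shown because these genes share a substrate but differed in spread. Each stretch runs from 250 bases before to 50 bases after an annotated start in the RefSeq table of build GRCm38.p6, 5′ to 3′ in the direction of the gene, and capitals mark matches to any of 8 motifs on either strand. The motifs were the nuclear receptor half-site AGGTCA, the FOXO site GTAAACA, the glucocorticoid receptor half-site AGAACA, the E-box CACGTG, the hypoxia response core ACGTG (which lies within the E-box), the CCAAT box CCAAT, the GC box GGGCGG and the TATA box TATAAA. The Pdk4 stretch is chr6:5496229-5496528 on the minus strand, that of Pdk2 chr11:95041322-95041621 on the minus strand, and that of Pdk1 chr2:71872974-71873273 on the plus strand. Pdk2 and Pdk1 each have 2 start sites in the table, and the site listed first is shown.
Pdk4: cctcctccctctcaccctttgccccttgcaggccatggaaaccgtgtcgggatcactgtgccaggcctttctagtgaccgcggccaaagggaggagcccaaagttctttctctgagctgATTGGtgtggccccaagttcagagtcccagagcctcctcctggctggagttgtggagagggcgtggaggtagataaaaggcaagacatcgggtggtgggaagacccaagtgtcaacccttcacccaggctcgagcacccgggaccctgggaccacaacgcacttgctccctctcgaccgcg
Pdk2: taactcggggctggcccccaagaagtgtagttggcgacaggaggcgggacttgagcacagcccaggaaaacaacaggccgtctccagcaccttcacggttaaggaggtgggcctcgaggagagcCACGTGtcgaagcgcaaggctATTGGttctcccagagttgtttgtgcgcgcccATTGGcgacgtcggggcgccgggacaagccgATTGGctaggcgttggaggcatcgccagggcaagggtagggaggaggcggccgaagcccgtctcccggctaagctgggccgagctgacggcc
Pdk1: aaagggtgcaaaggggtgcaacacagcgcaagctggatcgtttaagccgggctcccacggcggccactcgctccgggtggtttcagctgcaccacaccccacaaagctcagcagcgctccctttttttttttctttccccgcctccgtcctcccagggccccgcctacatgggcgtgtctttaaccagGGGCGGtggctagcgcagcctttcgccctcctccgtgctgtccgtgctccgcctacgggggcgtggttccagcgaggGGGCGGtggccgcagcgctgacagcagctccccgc

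In the Pdk4 stretch the single match was 1 CCAAT box on the minus strand, at position -131 counted from the start site, and 37.4% of all 32851 promoter stretches hold that motif. Pdk2 had 3 CCAAT boxes and 1 E-box, which 7.15% of stretches hold, and the hypoxia response core was matched there on both strands inside that E-box. Pdk1 had 2 GC boxes, a motif found in 35.7% of stretches, and its stretch held no hypoxia response core, which 19.6% hold. The nuclear receptor half-site (16.3% of stretches), the FOXO site (3.65%), the glucocorticoid receptor half-site (19.0%) and the TATA box (13.6%) were in none of the 3. The other annotated start of Pdk1 (GC content 40.3%), not printed, did hold 2 glucocorticoid receptor half-sites, at positions -153 and -138. GC content was 60.7% for Pdk4, 64.7% for Pdk2 and 66% for Pdk1, against a median of 52.7%. A match or its lack describes these letters in this window and nothing about binding.

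The phosphatase genes, which counter the kinases, spread little, and Pdp1 had the smallest SD of the set. Pdp1, the calcium-sensitive isoform, had log2 signals of 7.22 in mouse 1, 7.16 in mouse 2, 7.16 in mouse 3, 7.16 in mouse 4 and 7.25 in mouse 5, a mean of 7.19 ± 0.05 (SD, n = 5). All 5 livers lay within a 1.07-fold span, and 95.6% of tested genes had a larger or equal SD. Pdp2, the isoform linked to insulin and to fasting in liver, had 7.76 in mouse 1, 7.92 in mouse 2, 7.75 in mouse 3, 7.68 in mouse 4 and 7.76 in mouse 5, a mean of 7.77 ± 0.09 (SD, n = 5). Its highest value, in mouse 2, set most of its 1.18-fold span, and its SD was 0.04 without that mouse. Mouse 3 and mouse 5, the extremes for Pdk4, were almost equal for Pdp2.

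None of the 4 structural genes passed the variance test by limma (0 of 4 also at an unadjusted p under 0.05), and those of E1, the part the kinases act on, had the smaller SDs. Pdha1, the X-linked gene of the E1 alpha subunit that carries the phosphorylation sites, had log2 signals of 9.90 in mouse 1, 9.94 in mouse 2, 9.92 in mouse 3, 9.85 in mouse 4 and 9.73 in mouse 5, a mean of 9.87 ± 0.09 (SD, n = 5). Mouse 5 was below the other 4, without which the SD was 0.04. Pdhb, of the E1 beta subunit, had 8.63 in mouse 1, 8.52 in mouse 2, 8.49 in mouse 3, 8.30 in mouse 4 and 8.36 in mouse 5, a mean of 8.46 ± 0.13 (SD, n = 5). Mice 4 and 5 were low for Pdhb, and the span was 1.25-fold.

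Dlat encodes E2, the acetyltransferase that forms the core of the complex. It had log2 signals of 9.78 in mouse 1, 9.39 in mouse 2, 9.67 in mouse 3, 9.36 in mouse 4 and 9.56 in mouse 5, a mean of 9.55 ± 0.18 (SD, n = 5), with mice 1 and 3 high and mice 2 and 4 low. Pdhx encodes the protein that binds E3 to that core, and had 8.10 in mouse 1, 8.44 in mouse 2, 7.98 in mouse 3, 8.07 in mouse 4 and 7.92 in mouse 5, a mean of 8.10 ± 0.20 (SD, n = 5). Mouse 2, low for Dlat, was highest for Pdhx, and the SD of Pdhx was 0.08 without it. Both variances were 2.68 times that expected at their level and did not pass (limma adjusted p = 0.984 for each). The core and its binding protein thus had their extremes in different livers.

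Across the 9 genes above the floor, 4 (Pdk1, Pdk2, Pdha1 and Pdhx) were lowest in mouse 5, against 21.6% of all tested genes, and these 4 kept that place after quantile normalization and after centring each array on its median. Another 3 (Pdp2, Pdhb and Dlat) were lowest in mouse 4, against 36.5% of tested genes, though Dlat was lowest in mouse 2 after quantile normalization. With mouse 4 left out, Pdp2 was lowest in mouse 3, Pdhb in mouse 5 and Dlat in mouse 2. Pdk4 and Pdp1 were highest in mouse 5, against 19.2% of tested genes, and lowest in mouse 3, against 18.9%. For Pdp1, mouse 3 (7.155) was barely under mice 2 and 4 (7.159 in each), and mouse 4 was lowest with arrays centred on their medians. The order of the mice for Pdk4 and for Pdk1 was the same under all 3 scalings.

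**Figure D2:**
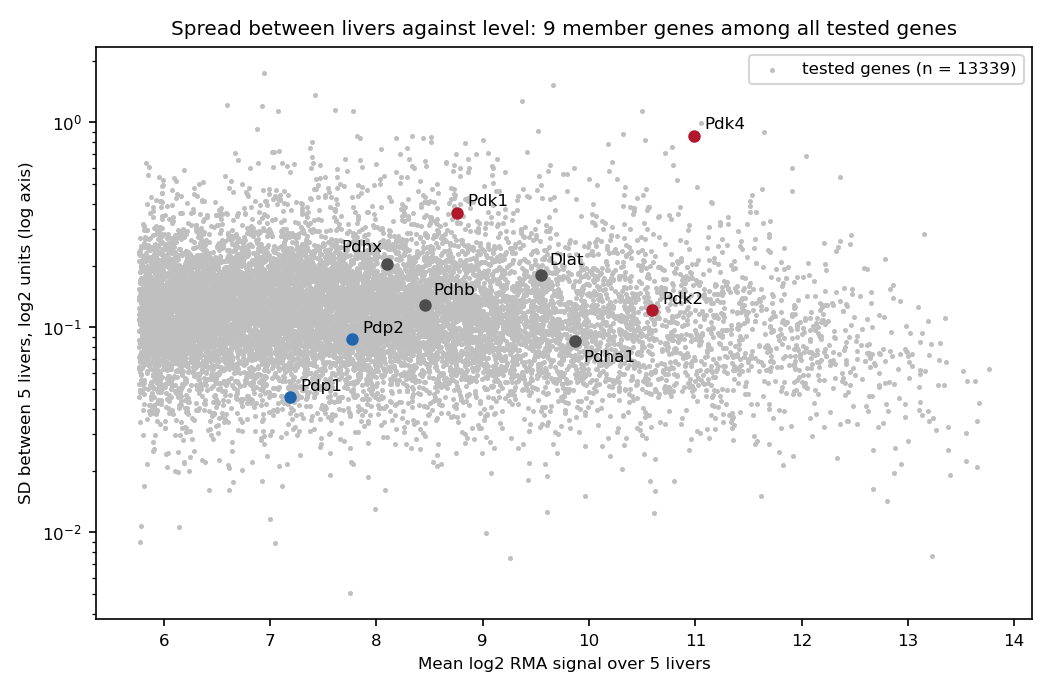
SD between the 5 livers in log2 units (vertical log axis) against the mean log2 RMA signal (horizontal axis) for the 13339 tested genes (grey) and the 9 genes of the set above the floor (red kinases, blue phosphatases, dark grey structural genes). Pdk4 lies at the top edge of the cloud with an SD of 0.86, Pdk1 in its upper part with 0.36, and Pdp1 near its lower edge with 0.05.

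Other genes of the PDC machinery also had a median SD near that of all tested genes, without matching for level. Of 16 further genes for E3, the regulatory subunit of the phosphatase, lipoate and thiamine handling and mitochondrial deacylases, 13 were measured and 12 tested, with 0 called by limma, 0 at an unadjusted p under 0.05, and a median SD of 0.10 against 0.12 for all tested genes. Dld, the E3 enzyme that PDC shares with its sister complexes, had a mean of 9.27 ± 0.10 (SD, n = 5), and Pdpr, the regulatory subunit of the phosphatase, 8.46 ± 0.10. The widest were Lipt1 (SD 0.22), a lipoyl transferase gene, the thiamine transporter gene Slc19a2 (0.20) and Iba57 (0.11), of iron-sulphur cluster assembly. For the sister complexes that break down other 2-oxoacids, among them branched-chain ones and 2-oxoglutarate, the median SD was 0.08. Of 8 tested genes, 0 were called by limma and 1 had an unadjusted p under 0.05, against 6.34% of all probe sets. That gene was Ppm1k, which encodes the phosphatase of the branched-chain complex (mean 9.63 ± 0.31, 1.61-fold span), and Dbt (SD 0.17) and Dhtkd1 (0.11) followed. Ppm1k was highest in mouse 2 (9.97) and lowest in mouse 5 (9.28).

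Genes that bring pyruvate to PDC or use it elsewhere included 1 wide gene, Pklr. It encodes liver pyruvate kinase, and had log2 signals of 10.30 in mouse 1, 9.05 in mouse 2, 10.02 in mouse 3, 8.99 in mouse 4 and 9.73 in mouse 5, a mean of 9.62 ± 0.58 (SD, n = 5). Mice 1 and 3 were high and mice 2 and 4 low, and the variance did not pass (limma adjusted p = 0.0772). Among the 16 tested genes of the list, 0 were called by limma and 1 (Pklr) had an unadjusted p under 0.05, against 6.34% of all probe sets. The median SD was 0.14. Mpc1, a subunit of the mitochondrial pyruvate carrier, had 11.69 ± 0.05, Ldha, of lactate dehydrogenase, 12.31 ± 0.07, and Pcx, the carboxylase that sends pyruvate to glucose production, 10.86 ± 0.14, each over 5 livers. Agxt (SD 0.18), of pyruvate-forming transamination, and the monocarboxylate transporter gene Slc16a1 (0.16) were next to Pklr in spread. In mouse 3, where Pdk4 was lowest, Pklr was the second highest of the 5.

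Downstream of PDC, the citrate cycle genes had a smaller median SD than the genes that turn acetyl-CoA into fat, without matching for level. Of 15 citrate cycle genes tested, 0 were called by limma and 0 had an unadjusted p under 0.05, with a median SD of 0.10. Cs (citrate synthase, SD 0.16), Fh1 (fumarase, 0.15) and Mdh2 (malate dehydrogenase, 0.15) were widest. Their variances were 2.73, 2.56 and 3.41 times those expected at their levels. Of 11 genes for acetyl-CoA use in lipogenesis, 1 (Thrsp) was called by limma, against 0.356% of all probe sets. An unadjusted p under 0.05 was found for 7 of the 11, against 6.34%, and the median SD was 0.27. The call of Thrsp (limma adjusted p = 0.0395) was lost with each of mice 1 to 4 left out in turn (0.0638 to 0.168, the highest without mouse 4). Acly, the enzyme gene that regains acetyl-CoA from citrate in the cytosol, was 10.92 in mouse 1, 10.59 in mouse 2, 10.95 in mouse 3, 10.14 in mouse 4 and 10.20 in mouse 5, a mean of 10.56 ± 0.38 (SD, n = 5). These 11 genes deviated on average by 0.34, 0.02, 0.19, -0.24 and -0.31 in mice 1 to 5. That average was lowest in mouse 5, where Pdk4 was highest, and highest in mouse 1, where Pdk4 was at its mean. The 2 measured of 6 erythroid markers (Alas2 and Slc4a1) deviated on average by 0.45, -0.13, 0.32, -0.33 and -0.30 in mice 1 to 5, and summed to 15.0 to 16.6 log2 units. The 12 Kupffer cell and macrophage markers, summing to 104.1 to 111.4, deviated by 0.37, -0.18, -0.05, -0.23 and 0.09. Of these 12, 11 were highest in mouse 1, against 23.9% of all tested genes. The part of either cell type in the lipogenic values was not tested.

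Genes of regulators known to act on Pdk4 or Pdk2 had a median SD of 0.14, against 0.12 for all tested genes. Of 19 genes, all 19 were tested and 0 were called by limma. An unadjusted p under 0.05 was found for 2 (Pparg and Lpin1), against 6.34% of all probe sets. Ppara, the fibrate-responsive receptor gene of liver, had 10.79 in mouse 1, 10.75 in mouse 2, 10.80 in mouse 3, 10.78 in mouse 4 and 10.45 in mouse 5, a mean of 10.71 ± 0.15 (SD, n = 5). Mouse 5, with the most Pdk4 signal, was the lowest for Ppara, and mouse 3, with the least, was not low. These are transcript levels, and the part of any regulator in the Pdk4 spread was not tested. Foxo1, a factor restrained by insulin, had 8.23 ± 0.11, Nr3c1, the glucocorticoid receptor gene, 8.26 ± 0.12, and Esrra, an estrogen-related receptor gene, 7.72 ± 0.18. Ppargc1a, a coactivator gene of fasting, had 8.20 in mouse 4 and 7.71 to 7.82 in the others. Lpin1 had an SD of 0.29, Pparg of 0.25 and Thra, a thyroid hormone receptor gene, of 0.20.

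**Figure D3:**
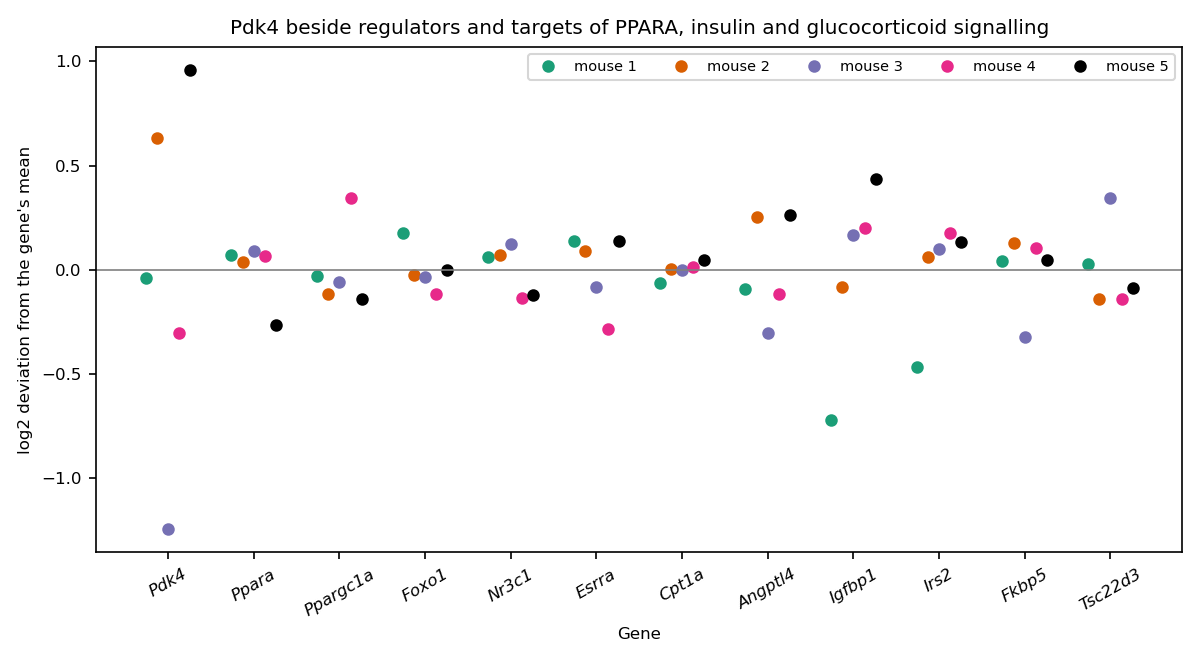
log2 deviation of each liver from the gene's mean (vertical axis) for Pdk4, 5 of its known regulators, and 6 genes of PPARA, insulin and glucocorticoid responses (horizontal axis); each point is 1 liver, coloured by mouse. Pdk4 runs from -1.25 in mouse 3 to 0.96 in mouse 5, and Angptl4 also has its lowest value in mouse 3 and its high values in mice 2 and 5, within a smaller range.

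Other PPARA targets were, on average, lowest in the same liver as Pdk4, by a smaller amount, though Acot5 spread more widely than Pdk4. The 24 tested PPARA targets of fatty acid oxidation and fasting deviated on average by -0.0045, 0.16, -0.18, -0.04 and 0.06 in mice 1 to 5. Mouse 3 was lowest for 12 of the 24, against 18.9% of all tested genes, and mouse 2 was highest for 13, against 25.5%. Acot5 (SD 1.15) was the 1 target of 24 called by limma, against 0.356% of all probe sets. An unadjusted p under 0.05 was found for 6 of the 24, against 6.34%. For Acot5 the limma adjusted p of 0.0102 became 0.0506 without mouse 2, 0.0540 without mouse 3 and 0.0883 without mouse 4. Angptl4, which encodes an inhibitor of lipoprotein lipase, had 9.97 in mouse 1, 10.32 in mouse 2, 9.76 in mouse 3, 9.95 in mouse 4 and 10.33 in mouse 5, a mean of 10.06 ± 0.25 (SD, n = 5). Mice 2 and 5 were high and mouse 3 was lowest, as for Pdk4, over a 1.48-fold span whose variance did not pass (limma adjusted p = 0.671). Mouse 3 stayed lowest under both other scalings, while mice 2 and 5 changed places when arrays were centred on their medians. Cpt1a, the entry enzyme gene of mitochondrial fatty acid oxidation, spanned 1.08-fold, and G0s2 (SD 0.50) and Ucp3 (0.44) were highest in mouse 1 and mouse 2.

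The list of insulin repression and signalling genes was lowest in mouse 1 by its mean deviation (-0.10) and highest in mouse 5 (0.07), with mouse 3 at 0.04. Of its 11 tested genes, 0 were called by limma. An unadjusted p under 0.05 was found for 4 (Igfbp1, Pck1, G6pc and Irs2), against 6.34% of all probe sets, and the median SD was 0.19. Igfbp1, a gene insulin represses, was lowest in mouse 1 at 9.61 and highest in mouse 5 at 10.77, while mouse 3 lay at 10.50, above its mean of 10.33. Irs2, an insulin receptor substrate gene, lay at 7.64 in mouse 1 and between 8.16 and 8.28 elsewhere. Pck1, of glucose production, reached 11.85 in mouse 4, its top value, and its SD of 0.26 became 0.15 when that liver was left out. For Pdk4, mouse 1 was at the mean and mouse 3 at the bottom. The difference between the genes was not tested.

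Glucocorticoid-induced genes deviated on average by 0.13, -0.05, -0.30, 0.03 and 0.19 in mice 1 to 5, with mouse 3 lowest and mouse 5 highest. The 3 widest genes gave much of that average, and the place of mouse 5 above mouse 1 rested on them. Mt1, Mt2 and Gadd45g deviated by -0.81, -1.02 and -0.63 in mouse 3 and by 0.535, 0.55 and 0.49 in mouse 5. In mouse 1 they deviated by 0.017, 0.0076 and 0.31. Members of the list were mixed: 5 of the 11 were lowest in mouse 3, against 18.9% of all tested genes, and 1 of 11 highest in mouse 5, against 19.2%. The metallothionein genes Mt1 and Mt2 were the 2 of 11 called by limma, against 0.356% of all probe sets. An unadjusted p under 0.05 was found for 5 of 11, against 6.34%, and Gadd45g (SD 0.65), a stress-response gene, was also wide. Metallothioneins also respond to metals. The call of Mt1 (limma adjusted p = 0.0440) was lost without mouse 2 (0.0767), mouse 3 (0.153) or mouse 4 (0.228), and that of Mt2 (0.0147) without mouse 3 (0.129) or mouse 4 (0.168). Fkbp5, a chaperone gene of the receptor, lay at 7.59 in mouse 3 and between 7.96 and 8.04 elsewhere, whereas Tsc22d3, the glucocorticoid-induced leucine zipper gene, was highest in mouse 3 at 8.04. Tat, a liver transaminase gene that the hormone induces, had 12.12 ± 0.14 (SD, n = 5) and was lowest in mouse 5.

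The genes whose pattern over the 5 livers was most like that of Pdk4 were found from the distance between patterns, which is the root mean square of the difference between 2 genes after each is centred on its mean. A correlation is not given for 5 samples. The 8 nearest named genes were Smcp (distance 0.20), Mtmr11 (0.21), Prom1 (0.22), Orm3 (0.27), Tuba8 (0.31), Orm2 (0.32), Eda2r (0.36) and Mfge8 (0.37), all in log2 units. Each was lowest in mouse 3, and 7 of the 8 were highest in mouse 5, the exception being Orm3 (9.20 in mouse 2 and 9.05 in mouse 5). Orm2 and Orm3 are orosomucoid genes of the acute-phase response and are close copies of each other, so their probes may not be independent. Smcp spanned 4.19-fold with 7.15 in mouse 3 and 9.21 in mouse 5, and Prom1, which encodes a membrane protein of epithelial and progenitor cells, spanned 3.82-fold and was under the floor in mouse 3. The distance is a description over 5 samples and favours genes that spread as widely as Pdk4.

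Turned upside down, the pattern of Pdk4 was nearest to Otop1 (distance 0.31), Nrep (0.34), Wfdc21 (0.36) and Dio1 (0.38), all 4 highest in mouse 3 and lowest in mouse 5. Dio1, the deiodinase gene that activates thyroid hormone in liver, was 9.21 in mouse 3 and 7.24 in mouse 5, with 8.14 to 8.29 in the others. Pdk1 ranked 52 of 13339 tested genes by this mirrored distance (0.56) and Pdk2 ranked 978 (0.69). Their plain distances to Pdk4 were 1.04 and 0.86. The other tested genes of the set had mirrored distances of 0.73 (Pdha1) to 0.84 (Pdhx). Pdk2 spread little, so neither distance sets it clearly with or against Pdk4. Mice 3 and 5 changed places between Pdk4 and Pdk1, while mouse 4 was next to lowest for both and mice 1 and 2 lay above it for both.

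**Figure D4:**
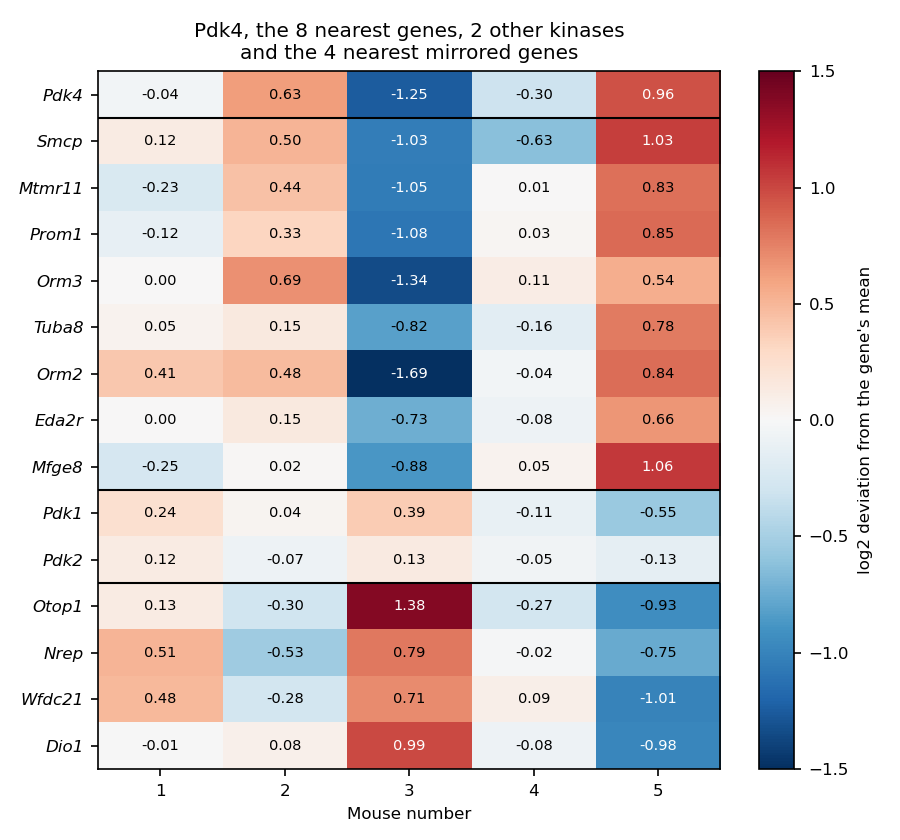
log2 deviation from each gene's mean (colour and printed value) in the 5 livers (columns) for Pdk4, the 8 genes with the nearest pattern, Pdk1 and Pdk2, and the 4 genes with the nearest mirrored pattern (rows). Mouse 3 is the low column and mouse 5 a high column in the top block, and both are turned round in the bottom block.

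Cholangiocyte markers were, in their mean, low in mouse 3 and high in mice 2 and 5, while single markers went several ways. Of 6 cholangiocyte markers, 5 were measured and 4 tested, and the tested ones deviated on average by -0.04, 0.14, -0.15, -0.05 and 0.10 in mice 1 to 5. Of these 4, Krt19 and Epcam were lowest in mouse 3, Sox9 and Krt7 were lowest in mouse 4, and 1 (Krt19) was highest in mouse 5, while Krt7 was highest in mouse 3 (deviation 0.07). The summed log2 signal of the 5 lay between 29.9 and 31.4, and Cftr was under the floor in all livers. Krt19 and Epcam lay near the floor. Krt19 ran from 5.99 to 6.46 and was under the floor in mouse 4. Epcam was 5.855 in mouse 3, against a floor of 5.79 there, and was highest in mouse 4 (6.453), the array with the highest floor. The part of bile duct cells in the Pdk4 pattern was not tested, and fewer cells of a type cannot be told apart from less RNA per cell in whole liver. Skeletal muscle is known to express Pdk4. All 5 tested of 11 muscle markers were highest in mouse 1, against 23.9% of all tested genes, with a mean deviation of 0.52. The summed log2 signal of the 11 was 70.1 in mouse 1 against 64.3 to 66.03 in the others, and Myh4, Mylpf and Actn3 were under the floor in all livers. Pdk4 deviated by -0.04 in mouse 1, and its SD was 0.99 without mouse 1. The part of muscle in the Pdk4 pattern was not tested. Of the adipocyte markers, Adipoq, Lep and Adig were under the floor in all livers, and the 4 tested of 8 deviated most in mouse 3 (0.15), where Pdk4 was lowest. The part of adipocytes was not tested either. Hepatocyte markers deviated by -0.02 to 0.04 as a mean over 11 genes, and single ones by more, such as Hnf4a, a hepatocyte transcription factor gene, by -0.23 in mouse 3 and 0.10 in mouse 5.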

How the data were processed

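Total RNA of 5 livers was measured, 1 array per mouse. The deposited values are log2 signals, a single value for each probe set on an array. RMA and Affymetrix Expression Console 1.2 are named, per the submitters' processing notes, with settings not given in the sources used here. RMA corrects background, aligns the distributions of arrays and summarises probes, which compresses differences near background.

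Of 35556 probe sets, 21789 had 1 gene symbol in the platform annotation, 1621 several and 12146 none. All 10 genes matched RefSeq (GRCm38.p6) by gene ID. limma 3.58.1 in R 4.3.3 fitted a mean to each probe set, and its variance between mice (4 residual degrees of freedom) was set against the level-trended robust expectation by a one-sided F test (fitFDistRobustly, prior degrees of freedom 6.21) over 14589 probe sets whose mean exceeded 5.77, with Benjamini-Hochberg adjustment at 0.05. The labels call the mice biological replicates, and without technical replicates the spread between mice includes technical spread. The number of arrays limits the precision.

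Genes named were the members, a fixed list of 20 genes (those without a value here are not reported), the 3 genes with the largest SD of each pathway list, listed genes that passed, and the genes nearest to Pdk4 (8, and 4 mirrored), without predicted, small RNA and receptor genes. Further listed genes are named for counts. Members and lists were chosen with earlier results of these data known. Python 3.11.15, numpy 2.4.6 and pandas 2.3.3 were used. The 13 alternatives covered normalization, dim probe sets, the variance fit, probe sets per gene and leaving out each mouse.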

Additional observations from a re-analysis of the deposited data

Results flagged for a closer look

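Among 64 genes checked (the 10 members and the other named genes), 5 had 1 liver set apart, where chance gives about 1 in 20. Set apart means a gap to the next liver above 0.71 of the gene's range (Dixon's Q), whatever its log2 size. Among the 10 members 0 were flagged, and Q was 0.43 for Pdk4. Fkbp5, a chaperone gene induced by glucocorticoids, was 7.59 in mouse 3, against 7.96 to 8.04 in the others. Irs2 was 7.64 in mouse 1, against 8.16 to 8.28. Ldha was 12.19 in mouse 4, against 12.33 to 12.35. Ppara was 10.45 in mouse 5, against 10.75 to 10.80. Ppargc1a was 8.20 in mouse 4, against 7.71 to 7.82. Mouse 3 had the lowest and mouse 5 the highest Pdk4 signal. These single-liver gaps have no replicate check.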

How the results depend on the processing

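The number of probe sets that limma called was 52, and it became 142 after centring arrays on their medians, 29 with only probe sets above the floor on all arrays, 18 with the floor at the 99th percentile, 24 without the level trend, 18 without the robust step and 31 with the mean over the probe sets of a gene. Leaving out 1 mouse at a time gave 0 to 69, with 0 (864 at an unadjusted p under 0.05) without mouse 4, 34 without mouse 2 and 30 without mouse 3. The number of called members was 1 (Pdk4). It was 0 without the level trend and 0 without the robust step (2 members at an unadjusted p under 0.05 in each). Of all 14589 probe sets, 807 had such a p without the level trend and 694 without the robust step. Called members numbered 0 to 1 with 1 mouse left out, and 0 without mouse 3 or mouse 4 (2 at an unadjusted p under 0.05). Probe sets with such a p were 816 of 14578 without mouse 3 and 864 of 14898 without mouse 4. The number of members with a span over 1.5-fold was 1 to 2 with 1 mouse left out, and 1 without mouse 5. Pdk4 passed under 9 of the 13 alternatives. Of the other 9 members, 0 passed under any alternative, but some SDs depended on 1 mouse, falling from 0.20 to 0.08 for Pdhx and from 0.09 to 0.04 for Pdp2 without mouse 2, and from 0.09 to 0.04 for Pdha1 and 0.36 to 0.22 for Pdk1 without mouse 5. The cause of the lost calls was not tested. No paired analysis was possible because there is 1 group.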

Other observations

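Besides Pdk4, 283 tested genes put the 5 livers in the order of Pdk4 (mouse 5, 2, 1, 4, 3 from high to low), and 49 of them spanned more than 1.5-fold. Lowest in mouse 3 and highest in mouse 5 were 958 tested genes other than Pdk4, 207 of them with a span over 1.5-fold. The reverse, highest in mouse 3 and lowest in mouse 5 as for Pdk1 and Pdk2, held for 977 genes, 139 of them with a span over 1.5-fold.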
